A study of Mus musculus with 3 samples.

Results

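Retinoic acid is the active form of vitamin A, and 9 genes of its synthesis, binding, sensing and breakdown are described here in reprogramming mouse tail-tip fibroblasts. They are Aldh1a1, Aldh1a2, Aldh1a3, Dhrs3, Crabp1, Crabp2, Rarb, Rarg and Cyp26b1. A probe was taken as a member if its RefSeq accession belonged to one of these genes, which gave 10 probes of 39429, and the 9 genes stand among 20886 named genes. The gene list was drawn up with the values of these arrays in view, so the values below are descriptions and none is tested. The study compared 3 groups, each on 1 single-colour microarray: cells of young wild-type (WT) mice aged 2 months, cells of old WT mice aged 22 months, and cells of old p16-/- mice aged 22 months. All 3 groups received 4 reprogramming factors (Oct4, Sox2, Klf4, c-Myc), and RNA was taken on day 8, so no array shows fibroblasts without the factors. The p16-/- mice are labelled as lacking the cell cycle inhibitor p16, which Cdkn2a encodes together with the tumour suppressor Arf. The Cdkn2a signal was 62705, 65464 and 28065 in young WT, old WT and old p16-/-, but whether its probe lies in the deleted part is not known here, so it does not check the genotype. How many donors each array stands for is not stated in the labels.

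Cells make retinoic acid from retinol in 2 steps. Retinol is first oxidised to retinaldehyde, chiefly by Rdh10, and retinaldehyde is then oxidised irreversibly by the dehydrogenases Aldh1a1, Aldh1a2 and Aldh1a3, while Dhrs3 reduces retinaldehyde back to retinol. Within the cell Crabp1 and Crabp2 bind retinoic acid, Crabp2 being known for delivering it to the nucleus, where retinoic acid receptors (Rara, Rarb, Rarg) paired with retinoid X receptors switch target genes. Cyp26 enzymes, among them Cyp26b1, oxidise retinoic acid for removal. In skin the pathway is known for its part in keratinocyte differentiation, hair follicle growth and the patterning of the dermis.

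Levels are given as Agilent's processed signal, a background-subtracted brightness, and ratios as log2 after each array was scaled to its 75th percentile. At least 2-fold means a log2 ratio of 1 or more in either direction, and with 1 array per group no ratio has a replicate check. Well above background were between 57.4% and 61.6% of the spots of an array, and the 75th percentile of probe signal was between 2051 and 2138. Eif2s3y and Ddx3y, on the Y chromosome, were well above background on the young array and not on the old ones. Xist was well above background on both old arrays and not on the young one. By these markers the young cells were male and the old cells female. Age and donor sex therefore cannot be told apart in ratios against young WT, for any gene and not only for sex-linked ones. In bulk RNA, fewer cells of a type and less RNA per cell cannot be told apart either.

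Old p16-/- cells had less Aldh1a2, Aldh1a3 and Dhrs3 RNA than old WT cells and more Cyp26b1 RNA, each by at least 2-fold. Old WT cells had less Aldh1a3 and Crabp1 RNA than young WT cells, each by at least 2-fold. Crabp2, Rarg, Rarb and Aldh1a1 stayed within 2-fold in all 3 comparisons, although Rarb in old against young WT passed that line with cyclic loess (-1.04).

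**Figure D1:**
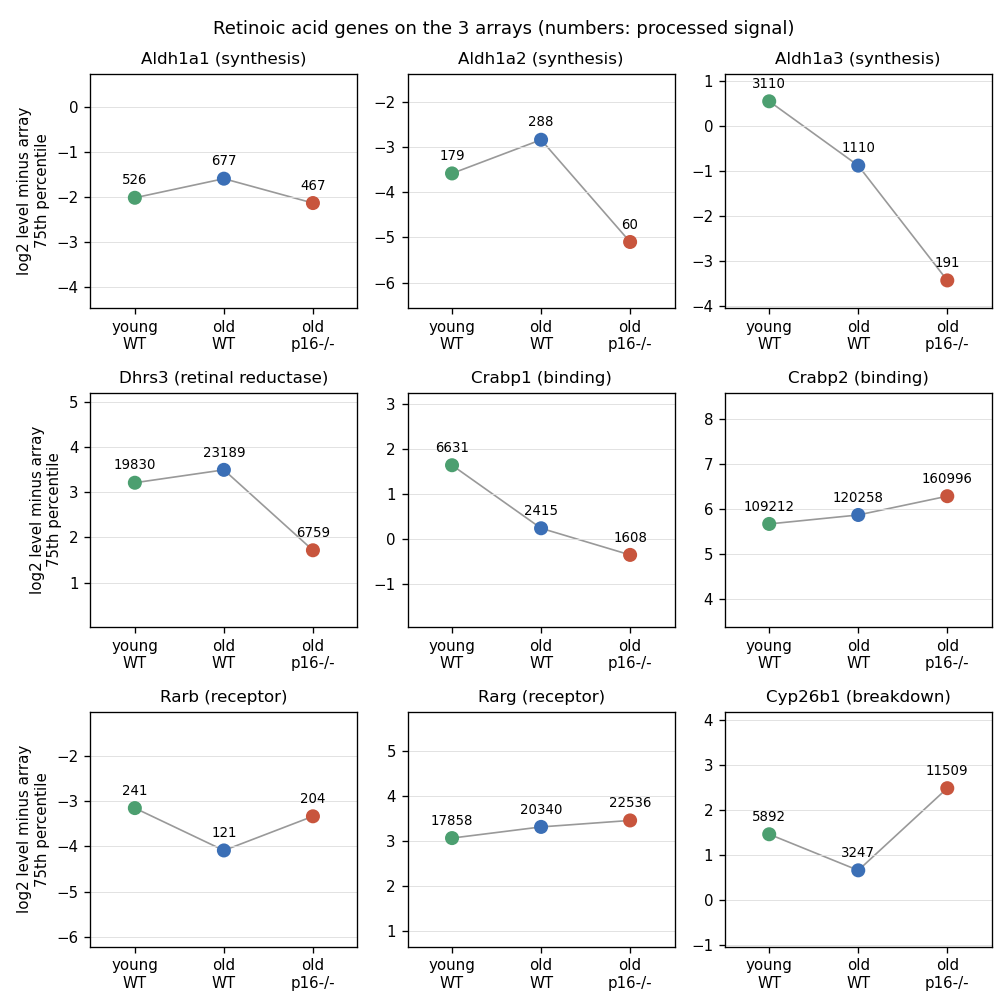
Level of the 9 genes in young WT, old WT and p16-/- cells, as log2 processed signal minus the 75th percentile of the array (y axis, the same span in every panel), with the processed signal printed at each point. 1 array per group, no error bar; grey lines only join the points of a gene. Aldh1a3 stepped down from 3110 to 1110 to 191, and Cyp26b1 stood highest on the p16-/- array at 11509.

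Among the retinaldehyde dehydrogenases, Aldh1a3 had the widest range of the 9 genes. Its signal was 3110 in young WT, 1110 in old WT and 191 in old p16-/-, so each array was lower than the one before. The log2 ratio was -1.43 between old and young WT, -2.55 between old p16-/- and old WT, and -3.97 between old p16-/- and young WT, the last a 15.7-fold difference. Of 14288 genes counted in that last comparison, 37 had a ratio as low or lower (0.259%). Between old and young WT there were 294 of 14554 (2.02%), and between old p16-/- and old WT 157 of 14701 (1.07%).

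Aldh1a2, the main enzyme of retinoic acid synthesis in the early embryo, had a signal of 179 in young WT, 288 in old WT and 60.0 in old p16-/-. Old WT was thus the highest and p16-/- the lowest, at a log2 ratio of 0.75 for old against young WT and -2.27 for old p16-/- against old WT (4.81-fold lower). These are dim readings. Among probes spotted 10 times with a median signal between 40 and 100 on the p16-/- array, the median spot-to-spot SD was 0.310 on the log2 scale, and 12 of 310 single spots lay at least 2-fold from the median of their probe (3.87%). The Aldh1a2 probe was spotted once.

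Aldh1a1 had a signal of 526 in young WT, 677 in old WT and 467 in old p16-/-. The ratios were 0.42 for old against young WT and -0.54 for old p16-/- against old WT, in the directions of Aldh1a2 but within 2-fold. Old p16-/- and young WT lay -0.12 apart, which is 1.03 times the combined spot-to-spot SD of probes of like brightness (0.114), so their order is not resolved. Aldh1a7, a close relative of Aldh1a1, had ratios of 0.32 and -0.21. The probe sequences were not used here, so whether these probes tell such relatives apart was not tested.

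Dhrs3, the reductase that returns retinaldehyde to retinol and is itself known as a retinoic acid-responsive gene, had a signal of 19830 in young WT, 23189 in old WT and 6759 in old p16-/-. The WT arrays were close to each other at a ratio of 0.29, and the p16-/- array stood apart at -1.78 against old WT (3.44-fold lower) and -1.50 against young WT. Of 14701 genes, 370 were as low or lower against old WT (2.52%).

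Cyp26b1, which breaks retinoic acid down, ran the other way. Its signal was 5892 in young WT, 3247 in old WT and 11509 in old p16-/-, so the p16-/- array was the highest and old WT the lowest. The ratio was -0.80 for old against young WT, 1.82 for old p16-/- against old WT (3.53-fold higher) and 1.02 for old p16-/- against young WT. Of 14701 genes, 360 were as high or higher against old WT (2.45%). The related genes Cyp26a1 and Cyp26c1 were not well above background in any group, so Cyp26b1 was the measurable member of its family.

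The binding proteins differed from each other. Crabp1 had a signal of 6631 in young WT, 2415 in old WT and 1608 in old p16-/-, stepping down in the same order as Aldh1a3. Its ratios were -1.40 for old against young WT (2.63-fold lower), -0.59 for old p16-/- against old WT and -1.99 for old p16-/- against young WT. Crabp2 had a signal of 109212 in young WT, 120258 in old WT and 160996 in old p16-/-, stepping up with ratios of 0.20 and 0.42. Fabp5, which can also carry retinoic acid and delivers it to the receptor Ppard, had ratios of -0.26 and 0.00.

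Of the receptors, Rarg had a signal of 17858 in young WT, 20340 in old WT and 22536 in old p16-/-. Its ratios were 0.25 and 0.14, and the latter is 2.18 times the combined spot-to-spot SD (0.0657). With quantile normalization the latter was 0.04, which is below that SD. Of 14701 genes, 34.6% had a ratio as high or higher in old p16-/- over old WT. Rarb, a receptor gene that retinoic acid is known to induce, had a signal of 241 in young WT, 121 in old WT and 204 in old p16-/-. Old WT was the lowest, at -0.94 against young WT, and p16-/- was 0.76 above it. Young WT and p16-/- differed by -0.18, which is 1.08 times the spot-to-spot SD (0.168) and not resolved. The other Rarb probe was not well above background in any group.

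Across the 9 genes and 3 comparisons, 25 of 27 ratios exceeded 2 combined spot-to-spot SDs, the exceptions being Aldh1a1 and Rarb in old p16-/- over young WT. That SD covers repeated spots on 1 array and not repeated cultures or mice. The share of all genes past that line was not computed, so the count cannot be read as a trait of these genes. Aldh1a1, Aldh1a2 and Dhrs3 had the order old WT, young WT, old p16-/- from high to low. Aldh1a3 and Crabp1 ran down from young WT to old WT to p16-/-, Crabp2 and Rarg ran up in that sequence, and Rarb and Cyp26b1 were lowest in old WT.

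**Figure D2:**
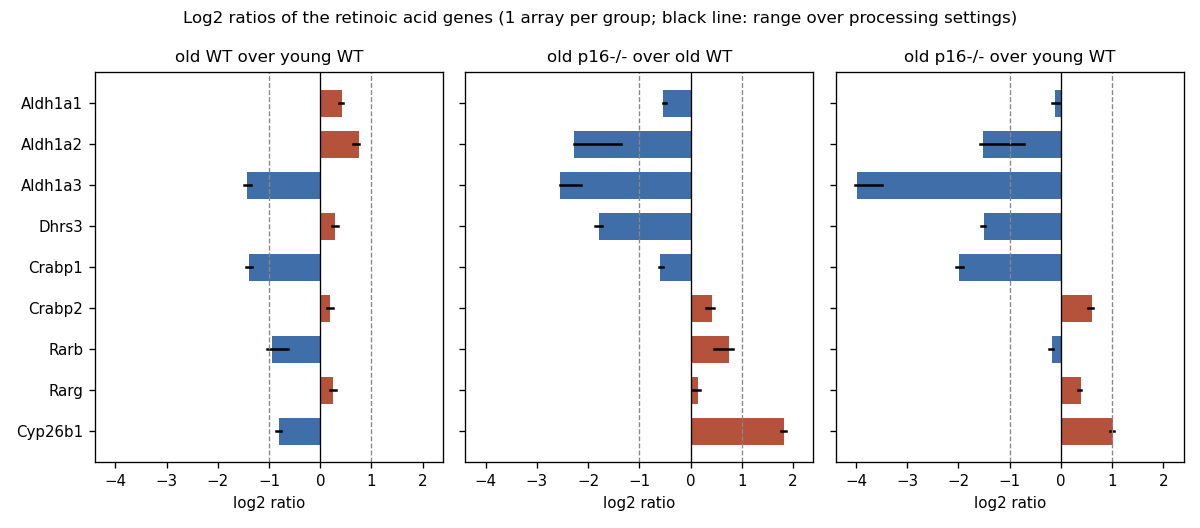
Log2 ratios of the 9 genes in the 3 comparisons (bars, x axis); red bars are above 0 and blue bars below, dashed lines mark 2-fold, and black lines span the values over the processing settings tried. Aldh1a3 is below the 2-fold line in every panel, and the range for Aldh1a2 reaches from -2.27 to -1.37 in the middle panel.

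The counts can be set beside those of all genes, although the genes were chosen from these same contrasts and nothing is read from the difference. For old WT over young WT, 2 of 9 were at least 2-fold lower (Aldh1a3 and Crabp1; 3.17% of all genes counted) and 0 at least 2-fold higher (2.94% of all genes). For old p16-/- over old WT, 3 of 9 were at least 2-fold lower (Aldh1a2, Aldh1a3 and Dhrs3; 6.61% of all genes) and 1 higher (Cyp26b1; 5.91%). For old p16-/- over young WT, 4 of 9 were lower (Aldh1a2, Aldh1a3, Crabp1 and Dhrs3; 6.97%) and 1 higher (Cyp26b1; 6.34%). The median of the 9 ratios was 0.20, -0.54 and -0.18 in these comparisons, beside 0.02 for all genes in old p16-/- over old WT and 0.03 in old p16-/- over young WT. The comparisons share arrays, so they are not independent of each other. The call for Cyp26b1 in old p16-/- over young WT sits at the 2-fold line, at 0.97 with arrays left unscaled and 0.99 with cyclic loess. With normexp background correction Aldh1a2 in that comparison was at -0.73, which leaves 3 of 9 lower, and with cyclic loess Rarb raised the count of lower genes in old against young WT to 3.

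**Figure D3:**
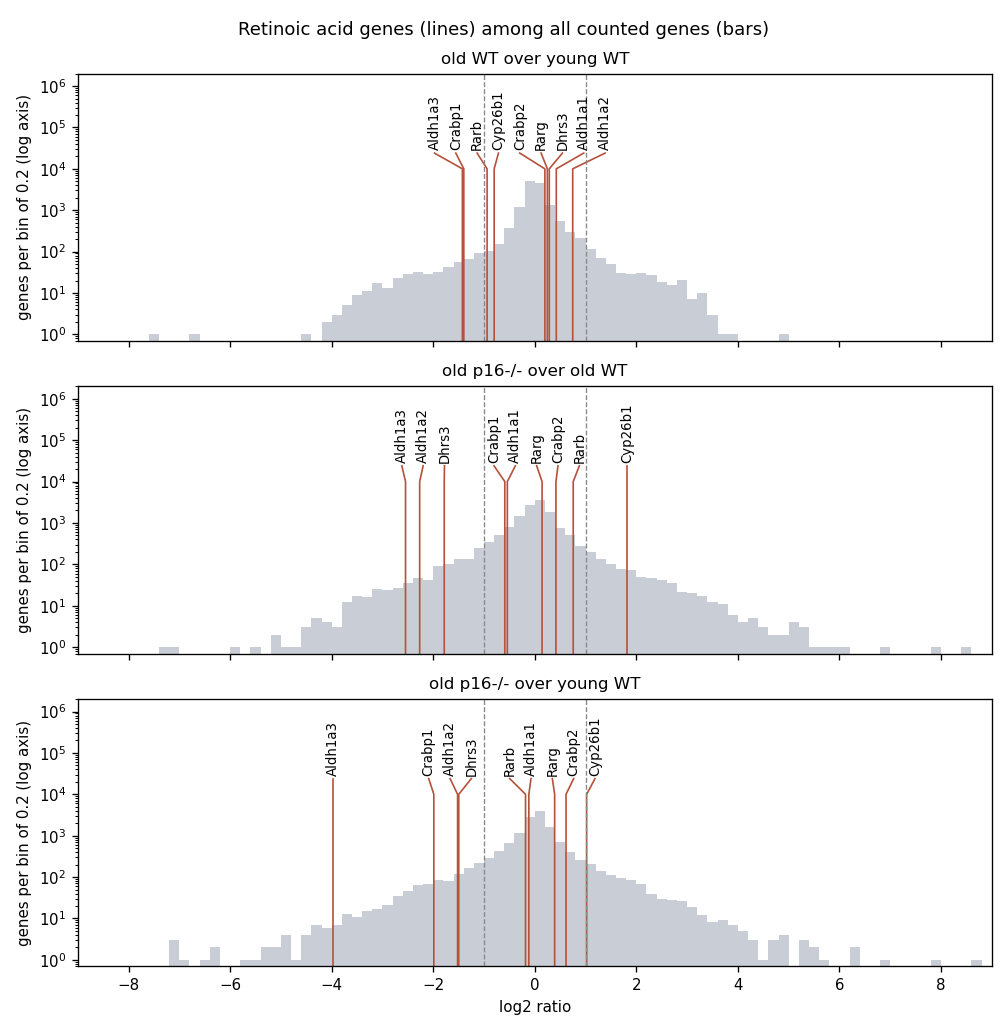
The 9 genes (red lines, labelled) among all counted genes (grey bars, genes per bin of 0.2 on a log axis) by log2 ratio (x axis) in the 3 comparisons; dashed lines mark 2-fold. In old p16-/- over young WT, Aldh1a3 at -3.97 lies far out on the left, with 37 of 14288 genes as low or lower.

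Promoter sequence is shown for the receptor and enzyme genes that the ratios turn on, because retinoic acid receptors bind direct repeats of a short core hexamer and several of these genes are known to answer to retinoic acid. A RefSeq table for GRCm38.p6 held 11 windows for 7 of the 9 genes, and none for Aldh1a3 and Crabp2. Each line gives the 250 bases before the annotated start, 5′ to 3′ on the strand of the gene. The Dhrs3 window printed is 1 of several for that gene. The Rarb window is chr14:16575477-16575726 (minus strand), Cyp26b1 chr6:84593811-84594060 (minus strand), Dhrs3 chr4:144892577-144892826 (plus strand), and Aldh1a2 chr9:71215539-71215788 (plus strand). Capitals mark a DR5 element, a direct repeat of the hexamer with 5 bases between.
Rarb: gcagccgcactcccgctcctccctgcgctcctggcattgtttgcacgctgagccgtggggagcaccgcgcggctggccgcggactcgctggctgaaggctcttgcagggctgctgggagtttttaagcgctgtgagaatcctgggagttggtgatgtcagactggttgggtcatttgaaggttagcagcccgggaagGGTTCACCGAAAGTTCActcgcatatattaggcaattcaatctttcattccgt
Cyp26b1: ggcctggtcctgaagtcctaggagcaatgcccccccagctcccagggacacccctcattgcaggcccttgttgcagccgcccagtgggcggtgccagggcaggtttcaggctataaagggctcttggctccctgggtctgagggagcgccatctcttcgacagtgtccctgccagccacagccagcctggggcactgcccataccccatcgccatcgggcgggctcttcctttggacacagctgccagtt
Dhrs3: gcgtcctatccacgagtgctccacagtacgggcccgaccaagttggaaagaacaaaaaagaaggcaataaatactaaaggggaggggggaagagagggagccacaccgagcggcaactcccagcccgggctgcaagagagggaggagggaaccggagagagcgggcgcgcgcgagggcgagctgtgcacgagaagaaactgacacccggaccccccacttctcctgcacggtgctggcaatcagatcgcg
Aldh1a2: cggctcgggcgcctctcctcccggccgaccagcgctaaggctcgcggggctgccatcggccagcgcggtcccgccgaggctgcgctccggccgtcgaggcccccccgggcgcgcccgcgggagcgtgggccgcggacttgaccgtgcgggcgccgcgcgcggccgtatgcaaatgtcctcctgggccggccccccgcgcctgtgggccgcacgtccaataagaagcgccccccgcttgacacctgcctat
The DR5 of Rarb, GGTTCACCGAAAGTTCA, spans bases 53 to 37 before the start, and is the element through which retinoic acid is known to induce this gene. The windows of Aldh1a1, Aldh1a2, Crabp1, Cyp26b1, Dhrs3 and Rarg held no DR1, DR2 or DR5 on either strand. Sequence outside the 250 bases was not searched, so these genes are not shown to lack such elements. The exact hexamer AGGTCA, searched apart from the repeats, was in 1 window of Rarg. That hexamer occurred in 14.0% of 32851 windows of all genes. DR5 occurred in 0.0883% of those windows, DR2 in 0.174% and DR1 in 0.164%.

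Among the pathway genes that are not members, the DR5 search also found Cyp26a1, whose window held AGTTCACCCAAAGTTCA on the opposite strand at bases 32 to 16 before the start. Rarb was measurable, and Cyp26a1, whose window holds the same kind of element, was not well above background. Of 28 genes with a DR5 window, 10 were on the array and 7 were counted in old p16-/- over old WT. Their median ratio was -0.32, with 0 at least 2-fold higher and 3 lower (Cfap45, Ppbp and Tnfsf13b), beside 5.91% and 6.61% of all genes. In old WT over young WT the median of 7 was 0.24, with 1 higher (Cfap45, at 1.22) and 0 lower, beside 2.94% and 3.17% of all genes. Of 6 counted in old p16-/- over young WT, 0 were at least 2-fold apart in either direction, and the median was -0.64. Of all genes, 6.34% were higher and 6.97% lower there.

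The wider pathway was read from a list of 98 other genes, of which 97 were on the array and 74 were counted in each of the comparisons old WT over young WT and old p16-/- over old WT. In old WT over young WT, 4 of 74 were at least 2-fold higher and 2 lower, with a median of 0.07. Between old p16-/- and old WT, 5 of 74 were higher and 7 lower, with a median of -0.01. Between old p16-/- and young WT, 8 of 72 were higher and 7 lower, with a median of -0.0028. Within 2-fold lay 91.9%, 83.8% and 79.2% of the counted pathway genes in these comparisons, beside 93.9%, 87.5% and 86.7% of all genes.

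Genes of retinol uptake, transport and storage held several of the larger ratios. Stra6, the receptor that takes up retinol from its plasma carrier, had signals of 194 and 71.1 in young and old WT (-1.39) and was not well above background in p16-/-. The plasma carrier Rbp4 ran the other way, with signals from 84.7 to 200.3 to 560.2, with ratios of 1.30 and 1.48. Rbp7, a further retinol-binding protein, had signals of 60.6, 53.6 and 232.5, with a ratio of 2.11 for old p16-/- over old WT. Lpl, a lipase of circulating lipid particles that helps cells take up retinyl esters, was at 2.78 in that comparison, or 1.74 by its other probe. Lrat, which stores retinol as its ester, was not well above background in any group.

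Upstream of the aldehyde dehydrogenases, of 26 retinol and retinal dehydrogenases, reductases and carotene-cleaving enzymes, 18 were counted, and none was at least 2-fold apart in old WT over young WT. Of all genes, 93.9% lay within 2-fold in that comparison, so little can be read from this count. Rdh10, the main retinol dehydrogenase of retinoic acid synthesis, had signals of 3672, 2941 and 3232, with ratios of -0.26 and 0.13. Adh7, an alcohol dehydrogenase that accepts retinol, had signals of 1346, 916 and 386, and at -1.25 was the enzyme at least 2-fold lower in old p16-/- over old WT (-1.75 against young WT). In old p16-/- over old WT, 6.61% of all genes were at least 2-fold lower. Dhrs9, a retinol dehydrogenase, was higher in p16-/- than in young WT by at least 1.34 on the log2 scale, with a signal of 177.5.

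The receptors outside the 9 genes and their partners lay mostly within 2-fold. Rara had ratios of -0.05 and -0.37, Rxrb of -0.02 and 0.17, and Rxrg of 0.12 and -0.13 by its brighter probe, the other probe of Rxrg being below background. Rxra was at 1.07 for old WT over young WT by a probe with signals of 136 and 275, but at 0.07 by its other probe (175 and 176), so that call rests on 1 dim probe. In old p16-/- over young WT these probes gave 1.40 and 0.78, and in old p16-/- over old WT 0.33 and 0.71. The corepressor Ncor1, which silences targets when no retinoic acid is bound, had ratios of -0.07 and 0.07. None of 6 counted corepressors and coactivators was at least 2-fold apart in any comparison. Most genes were not either: 93.9% of all genes lay within 2-fold in old WT over young WT. The shares were 87.5% in old p16-/- over old WT and 86.7% in old p16-/- over young WT.

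Genes known to respond to retinoic acid lay on both sides. The list was not split by whether retinoic acid raises or lowers a gene, so its counts and medians do not measure a response. Between old p16-/- and old WT, 2 of 34 were at least 2-fold higher (5.91% of all genes) and 5 lower (6.61% of all genes). The other 27 lay within 2-fold, and the median of the list was -0.08. The higher ones were Tbx1, a transcription factor gene (signals of 286, 1511 and 4015; 1.41), and Rarres1, a gene named for its induction by retinoids (1096, 1552 and 3705; 1.25). The lower ones were the transcriptional repressor Hic1 (8190, 5122 and 1581; -1.70), the surface enzyme Cd38 (-1.51), the receptor-like Gprc5a (-1.02) and, by bounds, Foxa1 (-2.37) and Gata6 (-1.80). Tgm2, a transglutaminase, was at 0.40 and 0.52, and another probe gave 0.42 and 0.55. In old WT over young WT, 2 of 34 were higher (Tbx1 at 2.46 and Foxa1 by a bound of 2.18) and 1 lower (the receptor tyrosine kinase Ret, -1.25). Of all genes, 2.94% were higher and 3.17% lower in that comparison. In old p16-/- over young WT, 3 of 32 were higher, beside 6.34% of all genes: Hoxa5 (1.09), Tbx1 (3.87) and Rarres1 (1.81). On the lower side were 4 of 32, beside 6.97% of all genes: Hic1 (-2.32), Cd38 (-1.46) and, by bounds, Ret (-2.11) and Gata6 (-1.15). Stra8, Hoxb1, Cdx1 and Gata4 were not well above background in any group.

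**Figure D4:**
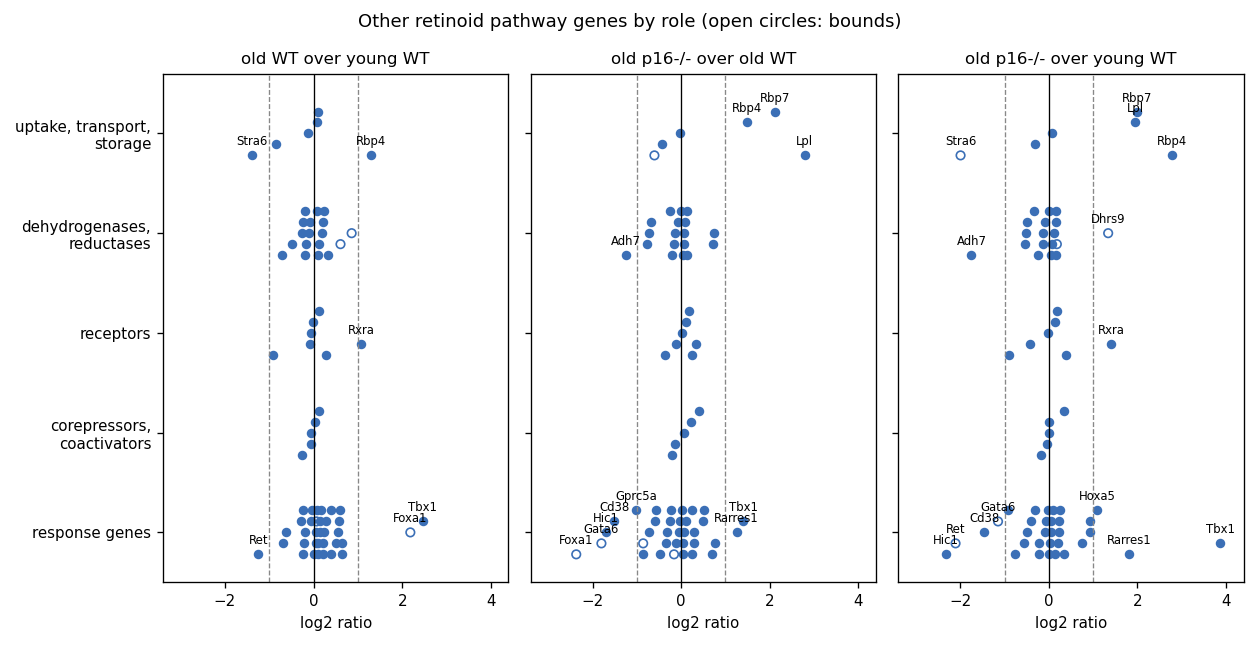
Log2 ratios (x axis) of the other counted retinoid pathway genes by role in the 3 comparisons; filled circles are measured ratios, open circles bounds, dashed lines 2-fold, and genes at least 2-fold apart are named. Fabp5 and Cyp2s1, the single counted genes of their roles, are not drawn, nor are genes not reported here. Receptors and cofactors cluster near 0, while uptake genes and response genes spread to both sides.

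Markers of other cell types were read beside these values. All 10 fibroblast markers were well above background on every array, with summed signals of 978810, 1044320 and 946617 in young WT, old WT and old p16-/-. The sum hides single markers: between old p16-/- and old WT, Thy1 was at -3.99 (52045 against 3287) and Pdgfra was at least 2-fold higher (884 against 2682), while the other 8 lay within 2-fold. Macrophage markers ran down in the order that Aldh1a3 and Crabp1 also followed. Hic1 (8190, 5122 and 1581) and Adh7 (1346, 916 and 386), which are not on the macrophage list, had that order too. Of 9 macrophage markers on the array, 9, 9 and 2 were well above background, with summed signals of 18028, 4894 and 1772. All 9 were at least 2-fold lower in old than in young WT, beside 3.17% of all genes. Adgre1, Lyz2, C1qa, C1qb, C1qc, Tyrobp and Ms4a7 were not well above background in p16-/-. Smooth muscle and pericyte markers had summed signals of 346939, 393657 and 133680 and 7, 7 and 5 of 8 above background; Myh11, Rgs5 and Des were below it in p16-/-. Dhrs3 had that order too, but the list was not uniform. In old p16-/- over old WT, 3 of its 7 counted markers were at least 2-fold lower (Acta2, Cnn1 and Tagln), beside 6.61% of all genes. Notch3 was at -0.56 and Mcam at 0.34. Cartilage markers had summed signals of 6035, 12923 and 48507 (5, 7 and 6 of 8 above background), most of it Col2a1 in p16-/- (42067). Keratinocyte markers summed to 13694, 10571 and 11138, with 7, 8 and 7 of 10 above background and Krt15 and Krt1 below it on every array. Schwann cell and melanocyte markers summed to 7634, 12918 and 17973, with 6, 8 and 6 of 10 above background and Dct below it on every array. Endothelial markers summed to 6606, 6603 and 6603, with 3, 4 and 3 of 8 above background. Most of that sum was Kdr (5830, 6041 and 6167), and Cdh5, Emcn, Tie1 and Cldn5 were below background on every array. Mesothelial markers summed to 172695, 120157 and 152425, with 2 of 5 above background on each array. Most of it was Msln (150609, 108329 and 146339), and Wt1, Upk3b and Lrrn4 were below background throughout. Papillary dermal fibroblast markers, which include Crabp1 itself, summed to 7453, 3594 and 3557. Of 4 counted in old WT over young WT, Crabp1 alone was at least 2-fold lower and 0 were higher, beside 3.17% and 2.94% of all genes. Their median ratio was 0.50. Pluripotency markers were dim, at sums of 1354, 1530 and 1269, with 5, 5 and 6 of 10 above background. Pou5f1, Zfp42, Esrrb and Dppa2 were below background on every array. Pou5f1 encodes the delivered factor Oct4. Whether these probes read the delivered factors was not tested, so they do not show if the factors were expressed. The part of these cell types in the retinoic acid values was not tested.

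For the 5 genes with a range of at least 1 on the log2 scale, the nearest patterns were sought among genes with a signal of at least 1000 on 1 array and all 3 arrays above background. Likeness was the Euclidean distance between levels centred on their own mean over 3 arrays, so many genes can lie close by. Nearest to Crabp1 were the macrophage receptors Trem2 (0.07) and Csf1r (0.15) and the chemokine Ccl9 (0.19), with 17 of 8681 genes within 0.5. Macrophage markers below background in p16-/- could not enter this search. In old p16-/- over old WT the median ratio of the macrophage list, bounds included, was -2.17, against -0.59 for Crabp1 and -0.74 for Csf1r. Nearest to Aldh1a3 were the transcription factor Tshz2 (0.45), the endocytic receptor Lrp2 (0.48) and the Fc receptor subunit Fcer1g (0.51), with 2 genes within 0.5. Dhrs3 lay nearest to the contractile gene Tagln (0.03), Gsdme (0.03) and Cnrip1 (0.05), with 150 genes within 0.5. Aldh1a2 lay nearest to Cpxm2 (0.05), the growth factor Tgfb3 (0.11) and Uba7 (0.16), and Cyp26b1 to the keratin Krt8 (0.13), Cavin2 (0.18) and Ddc (0.22), with 66 and 39 genes within 0.5.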

How the data were processed

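RNA of 3 groups was measured on 1 Agilent 1-colour array each. Per the file headers, the deposited intensity values come from Agilent Feature Extraction 11.5.1.1 on a design built on mm9, and the processed signal is background-subtracted, spatially detrended and not normalized between arrays. The deposited series table holds the same intensity values: 39030 of 39030 probes spotted once were equal within a relative tolerance of 0.0001 on each array (column medians of 137, 135 and 132). It was not used further. Control spots (1377) and outlier spots (246, 246 and 267) were left out; none was saturated.

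Spots of a probe were averaged as log2 processed signal, and the 75th percentile of the array subtracted (Python 3.11.15, R 4.3.3, limma 3.58.1 for alternative normalizations). Accessions without version were matched to a RefSeq table of GRCm38.p6, naming 27508 of 39429 probes. The brightest probe stood for a gene. A gene counted in a comparison if any of its probes was well above background on either array. Where 1 array was below it, the ratio is a bound, against the higher of the dim level and the lowest level above background on that array. The arrays shared 1 slide and 1 scan. No test was run, and the number of arrays limits precision. Ratios and bounds were tested on simulated data with the same noise for every probe, smaller than the spot-to-spot SD of dim probes. The simulation therefore says nothing on the precision of dim ratios.

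The members and lists were chosen with earlier results of these data known. Named genes are the members, other pathway genes at least 2-fold apart or central to the pathway, and the 3 nearest patterns per member; Fabp5, Tgm2, Aldh1a7 and genes below background or of the DR5 search named besides these were chosen after their values were seen. A few genes that the rule or the lists take are counted in the totals and not reported here by name.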

Additional observations from a re-analysis of the deposited data

How the results depend on the processing

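The 9 genes kept the direction of every ratio under all alternatives that gave them a value, and the cause of the shifts below was not tested. Part of this was fixed in advance, because each of the 9 genes had only 1 probe above background. The changes of background filter, the brightness filter and the mean over probes could therefore not alter their ratios. Only the other alternatives, of background correction, scaling and outlier spots, could do so. Of 180 counts under the alternatives, 149 lay within 1.5 times the reported count. The member count of 1 at least 2-fold higher in old p16-/- over young WT (Cyp26b1) became 0 without scaling and 0 with cyclic loess. Rarb in old WT over young WT ranged from -1.04 to -0.63, passing 2-fold with cyclic loess alone (3 lower), and Aldh1a2 in old p16-/- over young WT from -1.58 to -0.73, within 2-fold with normexp alone (3 lower). With normexp background correction (on the median spot signal, since the mean was not used), the other pathway genes in old WT over young WT were 2 higher and 0 lower, and all genes 258 higher and 266 lower, with 564 higher in old p16-/- over old WT and 603 in old p16-/- over young WT. Without a background filter, all genes were 910 higher and 790 lower in old WT over young WT, 1624 lower in old p16-/- over old WT, and 1440 higher and 1514 lower in old p16-/- over young WT. With both arrays above background these were 239 and 221, 553 higher, and 562 and 648, and the other pathway genes lower in old p16-/- over young WT were 4. When the brighter array had to reach a signal of 1000, where Aldh1a1, Aldh1a2 and Rarb drop out, other pathway genes were 1 higher and 0 lower, 3 and 3, and 3 and 3 in the 3 comparisons, and all genes 102 and 49 (67.5% higher among those called, against 48.1%), 236 and 372, and 303 and 372. No paired analysis was possible because each group has 1 array, and no array could be left out for the same reason.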
